A study of Mus musculus with 6 samples.

Results

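The p21-activated kinases (Paks) relay signals from Cdc42 and Rac, GTPases that switch between an active and an inactive form, by phosphorylating other proteins. Their members in the mouse were taken as listed by name, Pak1, Pak2 and Pak3 of group I and Pak4 and Pak6 of group II, and all 5 were found among the 21966 genes of the RNA-seq table. Group I Paks are held inactive by an autoinhibitory domain at the N-terminus that folds onto the kinase domain, and binding of an active GTPase to the CRIB motif (Cdc42/Rac interactive binding) beside it releases the kinase. Group II Paks also carry a CRIB motif and are regulated differently. Paks phosphorylate regulators of actin and of MAPK signaling, and in the intestinal epithelium they have been studied for their action on β-catenin and on cell motility.

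RNA was taken from primary cell lines made from intestinal adenomas of mice in which Cre inactivates 1 Apc allele. PID+ cells came from CDX2P-NLS-Cre;APCΔ/+;ROSA26-PID mice and PID- cells from littermates without the inhibitor allele (CDX2P-NLS-Cre;APCΔ/+), all 8 months old, with 3 samples per condition. The Cre and Apc lines were C57BL6/J, and the Cre transgene, under a CDX2 promoter, limits recombination largely to colonic and ileal epithelium. Both genotypes therefore share Cre and the Apc mutation, and differ by the PID allele. It encodes a GST-tagged peptide from the autoinhibitory domain of human PAK1 with the E129K substitution. The peptide is expressed from Rosa26 together with eGFP once Cre has removed a stop cassette. The cell lines of the conditions also came from different mice, and differences between lines cannot be told apart from those of the PID. The peptide was designed to block the kinase activity of group I Paks, and the RNA-seq can be asked which Paks the tumor cells transcribe and whether their levels differ when that activity is inhibited. In the labels the PID- samples are normal and untreated with the numbers 1, 2 and 3, while the PID+ samples are 4, 7 and 26. The PID+ numbers match those in the study's text and the PID- numbers do not, so whether the PID- samples are the same lines is not known. The labels name a mouse per sample, whereas the methods speak of replicated sequencing runs.

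The reads of the 3 samples of a condition were pooled by the authors before quantification. Every value below is therefore 1 pooled FPKM per gene and condition (fragments scaled by transcript length and sequencing depth), with the confidence interval deposited beside it. Differences between the conditions thus have no replicate check, and without a test no p-value is given. For genes averaging an FPKM of 10 or more, the upper bound of the interval lay above the FPKM by a median of 75.1% in PID+ cells against 73.9% in PID- cells. Both conditions had a passing quantification status for 21959 genes. A log2 change is the log2 ratio of FPKM + 1, PID+ over PID-; for a gene with low FPKM it is smaller than the true ratio. The depth is not known, but low FPKM values of genes with 1 annotated transcript, multiplied by the transcript length less 180 bases, fell on steps of 14.6 in PID+ cells against 10.6 in PID- cells. Of these low values, 91.8% in PID+ cells against 91.4% in PID- cells lay within 0.1 of a whole number of steps, against 20% for values without steps. The step and the 180 bases were chosen to give the highest such share, while the 20% holds for a step not chosen in this way.

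All 5 Paks were transcribed in both conditions. In PID- cells Pak3 had the highest FPKM, followed by Pak2, Pak4, Pak1 and Pak6. In PID+ cells the order was Pak4, Pak2, Pak1, Pak6 and Pak3, so that Pak3 stood first in one condition and last in the other. The deposited intervals of neighbours in these orders overlapped in each case, and none of the neighbouring ranks is separated beyond its error. Pak5 (listed as Pak7), the remaining group II gene and a kinase best known from brain, was listed at 0 in both conditions.

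Pak1 (ENSMUSG00000030774.10, chromosome 7 of GRCm38 from 97788541 to 97912381, plus strand) is the founding member of the family and the source of the inhibitory peptide. Its FPKM was 17.6 in PID+ cells, with an interval from 6.28 to 28.9, and 23.4 in PID- cells, with an interval from 9.08 to 37.6. The intervals overlapped for most of their width. The log2 change was -0.39, and Pak1 was lower in PID+ cells under each scaling tried. Any reads of the human PAK1 piece in the transgene that were placed on mouse Pak1 would be part of the PID+ value, and their share was not tested.

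Pak2 (ENSMUSG00000022781.8, chromosome 16 from 32016290 to 32079342, minus strand) is the group I member found in most tissues. It had an FPKM of 39.5 in PID+ cells (17.6 to 61.5) and of 52.6 in PID- cells (23.7 to 81.5), again with overlapping intervals. These levels lie at percentile 88.6 of all genes in PID+ cells against 91.8 in PID- cells. The log2 change was -0.40, and it turned to 0.10 once the median of its chromosome was subtracted. Genes on chromosome 16 averaging an FPKM of 5 or more (277 genes) had a median log2 change of -0.50, the lowest of the 21 chromosomes with at least 10 such genes, mitochondrial included. The 44 such genes within 5 Mb on either side of the start of Pak2 had a median of -0.50 as well. What the shift of the chromosome contributes to the value of Pak2 was not tested.

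Pak3 (ENSMUSG00000031284.13, chromosome X from 143518591 to 143797796, plus strand) is a group I kinase best known from neurons, where it acts in dendritic spines. It was the single Pak past 3-fold. Its FPKM was 14.7 in PID+ cells, with an interval from 0 to 35.2, and 75.9 in PID- cells, with an interval from 0 to 172. The FPKM in PID- cells was 5.15 times that in PID+ cells, but both intervals reached 0 and they overlapped. The log2 change was -2.29, lower than in all but 182 (1.59%) of the 11480 genes that passed a filter on low values (an FPKM of 1 or more on average over the conditions). It ranged from -2.86 with equal Gapdh FPKM to -1.83 with the chromosome median subtracted, and stayed past 3-fold in each case. On chromosome X, 286 genes had a median log2 change of -0.45, and the 17 genes in the 10 Mb around Pak3 one of -0.58. The role of this shift in the value of Pak3 was not tested.

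The number of fragments (read pairs, since the methods speak of paired-end reads) behind these values could be estimated. For Pak3, the longest of its 10 annotated transcripts was taken, and a step was taken as 1 fragment. Its FPKM then corresponds to an estimated 8583 fragments in PID+ cells against 60646 in PID- cells. For Pak1 the same estimate gives 3482 and 6352 fragments, with intervals that are narrower relative to the FPKM. What sets the width of the intervals was not tested. These estimates are approximate, since a gene with several transcripts may use shorter ones, and the values do not show which transcripts were present.

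Pak4 (ENSMUSG00000030602.9, chromosome 7 from 28558819 to 28598185, minus strand) is the widely expressed group II kinase. It had an FPKM of 45.9 in PID+ cells (11.3 to 80.6) and of 43.0 in PID- cells (12.0 to 73.9), the closest pair of values among the 5 Paks. The log2 change of 0.09 had no stable sign: it was -0.01 with equal total FPKM, -0.15 with the chromosome median subtracted and -0.51 with equal Gapdh FPKM. Chromosome 7 carries both Pak1 and Pak4, and its 646 genes averaging an FPKM of 5 or more had a median log2 change of 0.25. In Gencode M21, 39 of the 3535 exonic bases of Pak4 (1.10%) are also exonic in Samd4b on the same strand, a gene for which no value was used here.

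Pak6 (ENSMUSG00000074923.7, chromosome 2 from 118663303 to 118698020, plus strand) is a group II kinase. Its FPKM was 16.0 in PID+ cells (0 to 33.4) and 6.71 in PID- cells (0 to 17.8). The ratio of 2.39 placed it past 2-fold and short of 3-fold, and the intervals overlapped. Pak6 was higher in PID+ cells under each scaling tried, with log2 changes from 0.56 with equal Gapdh FPKM to 1.24 with a pseudocount of 0.1, against 1.14 as deposited. Of the genes that passed the filter, 535 (4.66%) had a higher log2 change. The median of chromosome 2 was 0.08 (769 genes).

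**Figure D1:**
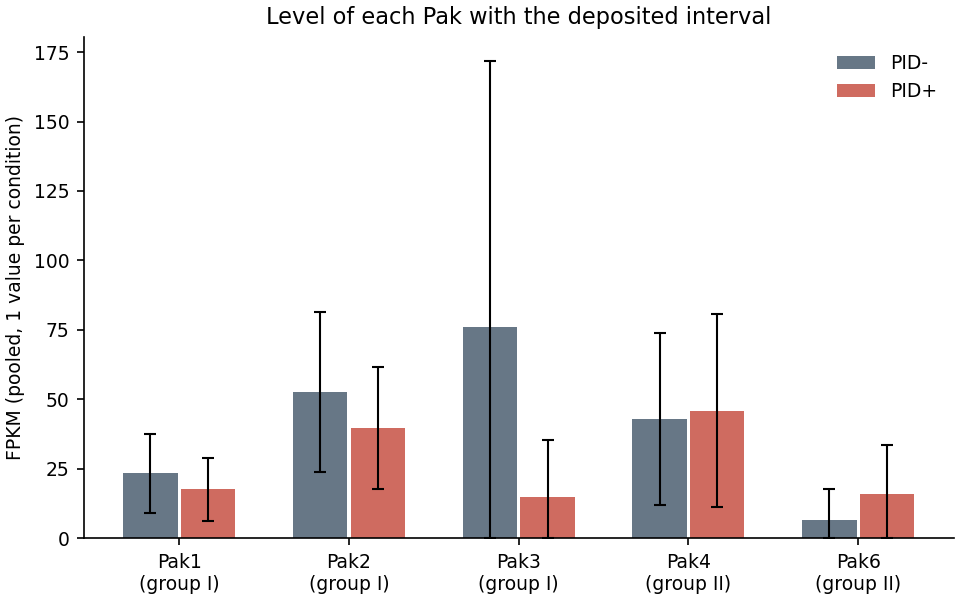
FPKM of the 5 Paks in PID- and PID+ cells; bars are the pooled value of each condition and error bars the deposited confidence interval. Pak3 goes from 75.9 in PID- to 14.7 in PID+ cells, and the intervals of the conditions overlap for each gene.

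Counts past a fold set the Paks against the whole table. Of the 5 genes, 0 were past 3-fold higher and 1, Pak3, past 3-fold lower in PID+ cells, where 1.99% of the 11480 genes that passed the filter were past 3-fold higher (229 genes) and 3.28% past 3-fold lower (377 genes). With equal Gapdh FPKM these counts for all genes were 76 higher and 662 lower. At 2-fold, 1 Pak, Pak6, was higher and 1, Pak3, lower, where 6.00% and 6.86% of all genes were. Deposited intervals of the conditions did not overlap for 1.38% of all genes, in either direction, and for 0 of the 5 Paks. The median log2 change of the Paks was -0.39, beside -0.01 over all genes. All 5 passed the filter on low values.

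How the conditions are scaled moves these values. Gapdh, the gene to which the qPCR of the study was normalized, had an FPKM of 2570 in PID+ cells against 1666 in PID- cells. Setting it equal moved the median of all genes to -0.57, and setting total FPKM equal moved it to -0.10. With equal Gapdh FPKM the log2 changes were -0.97 for Pak1 and -1.01 for Pak2, both below that median. Pak4, at -0.51, stood close to it.

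**Figure D2:**
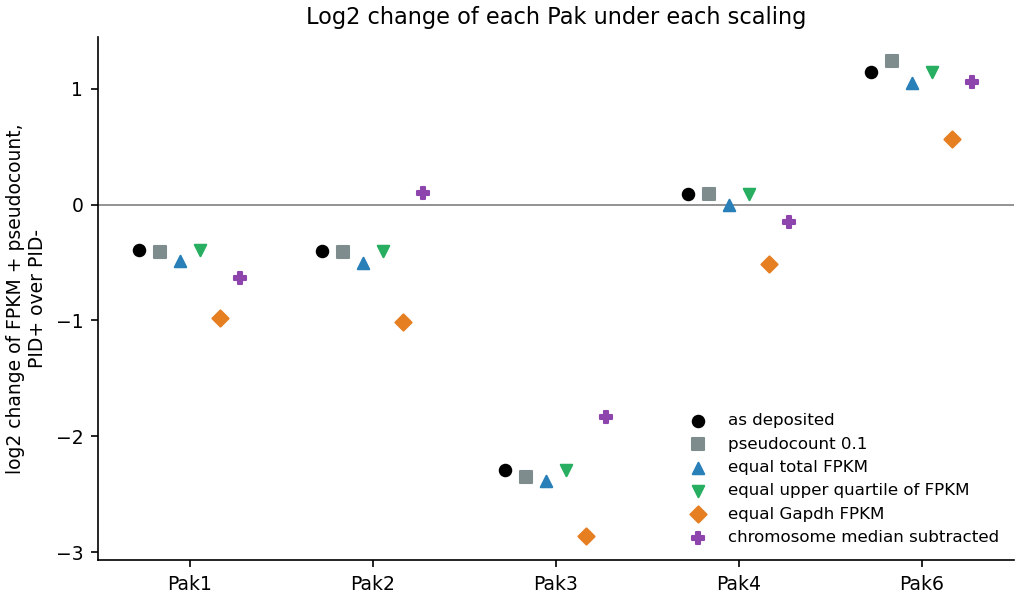
Log2 change of each Pak (PID+ over PID-) as deposited and under each alternative pseudocount or scaling. Pak1 and Pak3 lie below 0 and Pak6 above 0 in each case, while Pak2 turns to 0.10 with the chromosome median subtracted and Pak4 to below 0 with equal total FPKM, equal Gapdh FPKM or the chromosome median subtracted.

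Because FPKM is per length, the levels of the members can be added. Summed FPKM of the group I Paks was 71.8 in PID+ cells against 152 in PID- cells, a ratio of 0.473, or 0.307 with equal Gapdh FPKM. Without Pak3 it was 57.1 and 76.0, a ratio of 0.751, so that Pak3 accounts for most of the difference between the sums. Summed FPKM of the group II Paks was 61.9 in PID+ cells against 49.7 in PID- cells, a ratio of 1.25, which turned to 0.809 with equal Gapdh FPKM. Group I exceeded group II by 3.06 times in PID- cells and by 1.16 times in PID+ cells. A scaling factor common to all genes leaves this comparison within each condition as it is. Chromosome medians were not subtracted for the sums. Pak3 made up 37.7% of the summed FPKM of the 5 Paks in PID- cells against 11.02% in PID+ cells. Pak4 made up 21.3% and 34.3%, and Pak6 3.33% and 12.0%. The sum over all 5 was 134 in PID+ cells against 202 in PID- cells. None of these sums has a replicate check.

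The cells were checked against markers of the tissue and of other cell types, since a pooled value cannot tell fewer cells of a type from less RNA per cell. Of 9 markers of colon epithelium, 7 passed the filter, 6 with a higher and 1 with a lower FPKM in PID+ cells. Of all genes that passed the filter, 5670 were higher and 5810 lower. Epcam was past 3-fold higher and Cdx2 past 3-fold lower, where 1.99% and 3.28% of all genes were. The summed FPKM of the 9 markers was 8809 in PID+ cells against 4886 in PID- cells, with Krt19 the most abundant in PID- cells and Krt18 in PID+ cells. Epcam was at 401 in PID+ cells against 124 in PID- cells. Among the intestinal markers of the list, Krt20 was at 158 in PID+ cells against 73.5 in PID- cells. Cdx1 was listed at 0 in both conditions, and Vil1 was at 0.175 in PID+ cells against 0.0614 in PID- cells. Cdx2 was at 0.542 in PID+ cells against 8.04 in PID- cells. Of 7 fibroblast markers, 4 passed the filter, and these 4 were lower in PID+ cells, like Pak3. All 4 were past 3-fold lower, where 3.28% of all genes were. The list had a summed FPKM of 3.005 in PID+ cells against 34.1 in PID- cells. Col1a1, the most abundant by the mean over both conditions, was at 2.32 and 11.9. Col1a2 was at 0.0654 in PID+ cells against 11.9 in PID- cells, the only one of the 7 whose intervals did not overlap, and Dcn was listed at 0 in PID+ cells. The part of such cells or of such a program in the level of Pak3 was not tested.

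Neuronal markers, of interest for Pak3, were mostly at or near 0. Their summed FPKM was 6.57 in PID+ cells against 1.30 in PID- cells, nearly all of it Map2, the single one of 4 that passed the filter. Map2 was past 3-fold higher (log2 change 1.66), where 1.99% of all genes were, and its intervals reached 0 and overlapped. Rbfox3 was listed at 0 in both conditions, and Syt1 was at 0.0307 in PID+ cells and listed at 0 in PID- cells. Immune markers summed to 22.0 in PID+ cells against 17.1 in PID- cells, of which Cd68 gave 21.8 and 16.8, and Cd3e was listed at 0 in both. Endothelial markers summed to 3.66 and 1.12, with Kdr the most abundant and 3 of 4 below an FPKM of 1 in each condition.

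Upstream of the Paks stand the GTPases that bind the CRIB motif. Of 8 such genes, 5 passed the filter, 2 of them with a higher and 3 with a lower value in PID+ cells. Past 3-fold were 0 in either direction, where 1.99% of all genes were higher and 3.28% lower. With equal Gapdh FPKM 1, Rhou, was past 3-fold lower (log2 change -1.78). The median log2 change was -0.68, beside -0.01 over all genes, and it was -0.28 without the filter on low values. Rac1, the most abundant, had an FPKM of 618 in PID+ cells against 460 in PID- cells, and the log2 change of 0.42 turned to -0.20 with equal Gapdh FPKM. Cdc42, named after its value was seen because it is the median of the list, was at 123 in PID+ cells against 199 in PID- cells. Rac3 had the highest log2 change, 0.63 (0.05 with equal Gapdh FPKM), and Rhou, an atypical Cdc42-like GTPase, the lowest, -1.18. The interval of Rhou reached 0 in both conditions and 147 and 288 at its upper end.

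Adaptors bring group I Paks to the membrane and to focal adhesions. Of 10 adaptors and scaffolds, 9 passed the filter, and 0 were past 3-fold, where 1.99% of all genes were higher and 3.28% lower. The 9 adaptors and scaffolds had a median log2 change of -0.18, with 2 higher and 7 lower in PID+ cells. Pxn, the focal adhesion protein paxillin and the most abundant of them, had an FPKM of 78.5 in PID+ cells against 88.6 in PID- cells. Nck1, whose SH3 domains bind the proline-rich N-terminus of Pak1, had the lowest log2 change, -0.48. Among the 9 that passed the filter, the highest, for the calcium-binding protein gene Cib1, was 0.10 and turned to -0.51 with equal Gapdh FPKM.

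Inhibitors and phosphatases that restrain Paks gave a median log2 change of -0.06 over the 8 of 10 genes that passed the filter. Of these, 3 were higher and 5 lower, and 0 were past 3-fold, where 1.99% of all genes were higher and 3.28% lower. The median of the list was 0.04 without the filter. Nisch, the gene of the Pak1 inhibitor nischarin, was the most abundant at 159 in PID+ cells against 172 in PID- cells. Inka2, which encodes an inhibitor of Pak4, had the highest log2 change, 0.79 (0.25 with equal Gapdh FPKM), with an FPKM of 7.10 in PID+ cells against 3.70 in PID- cells. Fmr1, which encodes a protein that binds Pak1 and lies on chromosome X, had the lowest as deposited, -0.74, and -0.29 with the chromosome median subtracted. The E129K substitution in the peptide was made to remove that binding.

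Among cytoskeletal substrates of Paks and the targets of those substrates, 15 of 16 genes passed the filter, 6 higher and 9 lower, with a median log2 change of -0.17. The count past 3-fold was 0 higher and 1 lower, where 1.99% of all genes were higher and 3.28% lower. The gene past the fold was Vim, the intermediate filament gene vimentin and a mesenchymal marker, at 19.1 in PID+ cells against 997 in PID- cells. The log2 change was -5.63, and the intervals did not overlap, as for 1.38% of all genes. Vim was lower in PID+ cells, as were Pak3, the fibroblast markers and 5810 of all 11480 genes that passed the filter. Cfl1, the actin-severing protein cofilin at the end of the Pak and Lim kinase cascade, had the highest mean over both conditions, at 752 in PID+ cells against 659 in PID- cells. The log2 change of 0.19 turned to -0.43 with equal Gapdh FPKM. Cttn, the actin-binding protein cortactin, had the highest log2 change, 0.45, which turned to -0.17 with equal Gapdh FPKM.

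Signaling substrates and partners had a median log2 change of -0.04 over 13 of 15 genes, 6 higher and 7 lower. Of these, 0 were past 3-fold higher and 1 past 3-fold lower, where 1.99% and 3.28% of all genes were. The gene past the fold was the integrin gene Itgb5, at 2.23 in PID+ cells against 30.6 in PID- cells (log2 change -3.29). Its intervals were apart, as for 1.38% of all genes. Itgb5 lies on chromosome 16, like Pak2. Ctnnb1, the gene of β-catenin and the most abundant, was at 482 in PID+ cells against 435 in PID- cells. The log2 change of 0.15 turned to -0.48 with equal Gapdh FPKM. Plk1, a mitotic kinase, had the highest log2 change at 1.12.

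**Figure D3:**
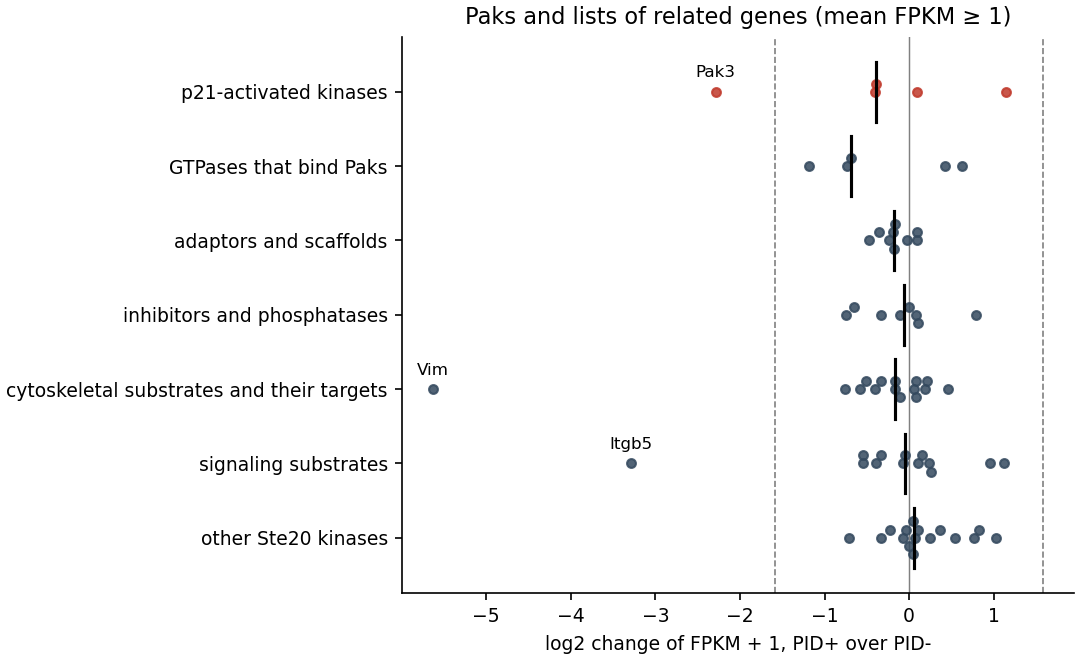
Log2 change of FPKM + 1 (PID+ over PID-) of the 5 Paks and of the genes of each list that passed the filter on low values; each point is a gene, black bars are medians and dashed lines mark 3-fold. Leaving aside the markers of tissue and cell types, Pak3, Vim and Itgb5 lie past 3-fold lower, and 0 genes lie past 3-fold higher.

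Paks belong to the Ste20 family of kinases, and the other members of that family show how the Paks compare with their relatives. Of 22 other Ste20 kinases, 16 passed the filter, 10 higher and 6 lower. Past 3-fold were 0 of these kinases, where 1.99% of all genes were higher and 3.28% lower. The median log2 change of the 16 was 0.06, and it turned to -0.05 with equal total FPKM and -0.53 with equal Gapdh FPKM. Among the 21 that passed the filter, Paks included, Pak3 had the lowest and Pak6 the highest log2 change. Pak3 had the second highest FPKM of all 27 kinases in PID- cells and ranked 20 in PID+ cells. Pak4 ranked 5 in PID+ cells against 7 in PID- cells, and Pak2 7 and 5. Of the other kinases, Slk had the highest mean over both conditions, at 113 in PID+ cells against 65.7 in PID- cells, where Map4k4 was higher at 99.0. Map4k2 had the highest log2 change of the others, 1.02, and Taok3 the lowest, -0.71.

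The genes whose FPKM in both conditions was nearest to that of each Pak were found by the distance between log2(FPKM + 1) values. With 2 conditions and 1 value in each, nearness says only that the levels are alike. For Pak3 the nearest were Dhrs3, at 13.7 in PID+ cells against 79.2 in PID- cells (distance 0.11), and Atf5, at 12.4 and 71.4 (0.25). Pak1 lay nearest to Golgb1 and B3gat3 (0.01 and 0.02), and Pak2 to Mrpl20 and Cfl2 (0.02 and 0.04). Pak4 lay nearest to Ndufs8 and Midn (0.01 and 0.03), and Pak6 to Cd3eap and Stat2 (0.07 and 0.07).

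How well the reads of the Paks can be told apart was read from the annotated transcripts. Among all stretches of 50 bases, the read length the labels give, 0 were shared between any of the 6 Pak genes. Pak1, Pak3 and Pak7 shared 0 with any other gene on either strand, while Pak2 shared 266 of 6746 (3.94%), Pak4 21 of 3532 (0.595%) and Pak6 25 of 5249 (0.476%). The CRIB motif, where the GTPases bind, was found in each of the 6 predicted open reading frames. Its 36 coding bases from Gencode M21 transcripts (GRCm38, coding strand, 5′ to 3′) are shown because they are what the family has in common, with capitals on the codons of the 6 residues used in the search (isoleucine, serine, proline, phenylalanine and a pair of histidines).
Pak1: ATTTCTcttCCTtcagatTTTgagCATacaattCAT
Pak2: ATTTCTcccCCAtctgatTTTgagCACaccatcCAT
Pak3: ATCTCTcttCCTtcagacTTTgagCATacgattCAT
Pak4: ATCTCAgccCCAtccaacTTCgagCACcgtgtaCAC
Pak6: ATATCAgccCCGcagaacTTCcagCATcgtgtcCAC
Pak7: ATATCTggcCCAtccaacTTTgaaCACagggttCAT

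From the motif on, group I Paks share a region that overlaps the one from which the inhibitory peptide derives. The 60 codons printed start before the minimal inhibitory domain given in the paper and end before it does. Their coding bases are given to show how far the genes differ there. They encode residues 75 to 134 of Pak1, 74 to 133 of Pak2 and 70 to 129 of Pak3 in the transcripts used, and capitals mark the codon of Pak1 residue 129 and its counterparts.
Pak1: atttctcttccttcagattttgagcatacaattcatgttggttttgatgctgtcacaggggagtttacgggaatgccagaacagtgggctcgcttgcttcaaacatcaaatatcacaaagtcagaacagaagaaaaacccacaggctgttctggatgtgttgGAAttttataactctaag
Pak2: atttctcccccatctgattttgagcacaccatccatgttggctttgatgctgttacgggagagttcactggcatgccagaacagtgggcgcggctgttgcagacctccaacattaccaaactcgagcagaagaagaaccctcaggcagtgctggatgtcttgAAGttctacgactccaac
Pak3: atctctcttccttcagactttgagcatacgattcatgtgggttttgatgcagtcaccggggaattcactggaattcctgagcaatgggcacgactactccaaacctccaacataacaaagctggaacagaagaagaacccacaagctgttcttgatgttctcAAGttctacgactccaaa
Over these 180 bases, Pak1 and Pak2 were identical at 138 (76.7%), Pak1 and Pak3 at 142 (78.9%) and Pak2 and Pak3 at 139 (77.2%). The longest identical run was 17 bases in any pair, well under the length of a read, although 91.7% to 95.0% of the 60 encoded residues were the same. Counted from the first methionine of Pak1, the substitutions from Pak1 to the residue shared by Pak2 and Pak3 were S115L, E129K and N132D. E129K, the change carried by the inhibitory peptide, is therefore the residue that mouse Pak2 and Pak3 have at this position. The sequence of the human transgene was not used here.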

How the data were processed

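Poly(A)-selected RNA of 3 PID+ and 3 PID- samples was sequenced. According to the methods and the submitters' processing notes, the authors trimmed adapters with CutAdapt, aligned reads with TopHat and Bowtie2 to GRCm38.p3 using protein coding gene models, merged the 3 read sets per condition, and deposited FPKM from CuffDiff (compatible hits normalization). The deposited confidence bounds are in the same unit and cover CuffDiff's own error model only; its standard deviation column was not used. The CuffDiff version is not given in the sources used here. Rows called treated were taken as PID+, after the treatments in the labels; this could not be checked on the transgene, for which the table has no row.

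Of 21966 identifiers, 21734 matched a symbol; 7 genes without a passing status were left out. Pseudocount (1), filters (mean FPKM of at least 1, and of at least 5 for chromosome medians) and folds are as stated in the text. Members and lists were chosen with earlier results of these data known; 1 list and 1 gene of another list are not reported here and were left out of the lists' medians and counts. Named genes are the Paks, the most abundant, highest and lowest gene of each list, every gene of these lists past 3-fold, the 2 genes nearest to each Pak, and Gapdh; marker genes were named for their role or level after their values were seen, and other exceptions are stated. Positions, transcripts and coding bases came from Gencode M21; reading frames are the longest of a coding transcript. Alternatives tried were equal total, upper quartile or Gapdh FPKM, a pseudocount of 0.1, chromosome medians subtracted, other filters, 2-fold, and intervals apart. Calls were run on simulated data with large planted changes and little noise. This checked the calculation, not how reliable the 3-fold calls are. Python 3.11.15, numpy 2.4.6, pandas 2.3.3, matplotlib 3.10.9 and biopython 1.88 were used.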

Additional observations from a re-analysis of the deposited data

How the results depend on the processing

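For the Paks, list medians, sums and counts over all genes, 86 values under an alternative moved by less than the spread that the deposited intervals give (for counts, by at most 1.5 times) and 10 moved by more. For single list genes and counts within lists, 205 did so and 7 moved by more, none with a change of sign past 3-fold. The log2 change of Pak2 was -1.01 with equal Gapdh FPKM. Counts of all genes past the fold, 229 higher and 377 lower, were 375 higher and 523 lower with a pseudocount of 0.1, 76 higher and 662 lower with equal Gapdh FPKM, 144 higher and 221 lower with a mean FPKM of at least 5 (fewer genes tested), 689 higher and 787 lower at 2-fold, and 40 higher and 118 lower where deposited intervals did not overlap. The cause of the Gapdh difference was not tested. Pak3 was past 3-fold lower under each pseudocount, scaling and filter tried, and not where intervals had to be apart. Because the intervals are wide, a small move against them says little. Leaving out replicates was not run, since the table holds pooled values. No paired analysis was possible because the values carry no sample.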

Other observations

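Aurka and Plk1, kinases of mitosis among the listed genes, were singled out after their values were seen. Aurka had an FPKM of 62.2 in PID+ cells against 31.7 in PID- cells, and Plk1 of 50.1 and 22.5. Their log2 changes were 0.95 and 1.12, and with equal Gapdh FPKM 0.34 and 0.51. Plk1 was past 2-fold higher and Aurka was not, where 6.00% of all genes that passed the filter were. The deposited intervals of the conditions overlapped for both genes, and no replicate check exists.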
